A study of Arabidopsis thaliana with 24 samples.

Results

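The genotype effect described here is the difference between grf6 grf8 and wild-type (WT) rosette leaves of Arabidopsis thaliana averaged over 0, 2 and 4 h of dehydration. A gene called in this average need not differ at each of the times. All 24 of the 24 libraries entered it, 12 from grf6 grf8 and 12 from WT, in 6 groups of 4. Each group had its own mean, and the contrast was the mean of the 3 grf6 grf8 groups minus the mean of the 3 WT groups. It was computed a second time with a score for young dividing tissue as a covariate. The grf6 grf8 leaves, taken at 0, 2 and 4 h, came from plants of 24 days that carry mutations in both GRF6 and GRF8. The WT leaves, taken at the same 3 times, came from plants of the same age, and both genotypes had grown for 12 days on plates before another 12 days on soil. The mutant alleles, the accession and the time of day at harvest are not given in the sources used here. No watered leaves were taken at 2 or 4 h.

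GRF6 and GRF8 encode 14-3-3 proteins, dimers that dock on phosphorylated sites of other proteins and alter how active these are, where they act or how long they last. In plants the partners include the plasma membrane proton pump, nitrate reductase, transcription factors of the abscisic acid (ABA) and brassinosteroid pathways and regulators of the clock and of immunity. The family has 13 members in Arabidopsis, and several of them are present together in a leaf cell.

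Few genes differed between the genotypes in the average. Of 18841 genes tested, 16 passed the edgeR quasi-likelihood test at an adjusted p under 0.05 (Benjamini-Hochberg, over all genes), which is 0.0849% of the genes. Higher in grf6 grf8 were 5 genes (0.0265%) and lower were 11 (0.0584%). The lower genes included both mutated loci, an unannotated locus almost silent in the mutant, a pair of overlapping genes on chromosome 1 and genes of the immune receptor and kinase families. The higher genes included another pair of 14-3-3 genes. At an unadjusted p under 0.05 there were 827 genes. The median log2 fold change of all genes was 0.00501.

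With the young tissue covariate 51 genes passed (0.271%), 18 higher (0.0955%) and 33 lower (0.175%), and 2210 had an unadjusted p under 0.05. All 16 genes of the fit without the covariate were among the 51. The 35 added genes included evening genes of the clock, which were higher in grf6 grf8, morning genes of the clock, which were lower, and further 14-3-3 and immune receptor genes.

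The covariate was the mean log2 CPM (counts per M counts after TMM scaling, prior count 2) of 6 genes that are active in dividing cells: CYCB1;1 (AT4G37490), CYCB1;2 (AT5G06150), CDKB1;1 (AT3G54180), CDKB2;1 (AT1G76540), CDKB2;2 (AT1G20930) and KNOLLE (AT1G08560). Cyclins B and CDKB kinases drive cells into mitosis, and KNOLLE is a syntaxin of the dividing cell's new wall. The score was -1.34 at its lowest, -0.54 at its median and 2.30 at its highest in the 12 grf6 grf8 libraries, against -1.27, -0.52 and 2.01 in the 12 WT libraries. The high values stood in single libraries of both genotypes, namely grf6 grf8 4 h replicates 1 (2.30) and 2 (1.98), grf6 grf8 0 h replicate 1 (0.58), WT 4 h replicate 4 (2.01) and WT 2 h replicate 4 (0.40). Averaged over the times the score differed by 0.27 between genotypes, with means of -0.11 ± 1.16 in grf6 grf8 and -0.38 ± 0.86 in WT (SD, n = 12 each; exact permutation test within times, two-sided, p = 0.509, 0.821 adjusted over 4 library measures). The differences at 0, 2 and 4 h were 0.22, -0.28 and 0.86, so the genotypes were least alike in this score at 4 h.

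**Figure D1:**
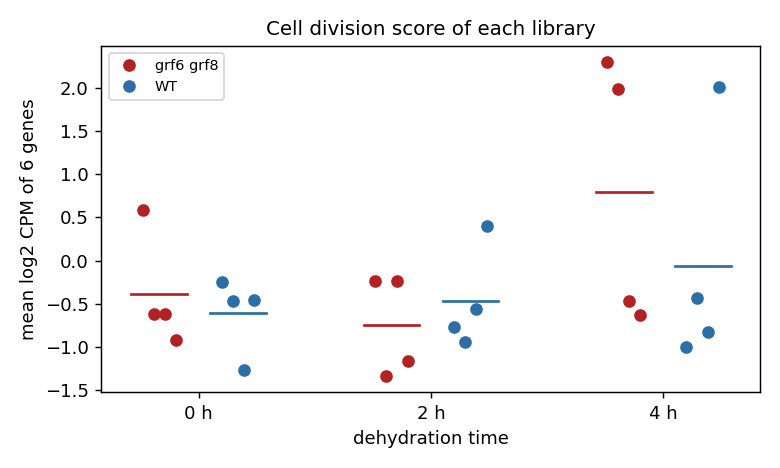
The cell division score of each library (mean log2 CPM of 6 genes, vertical axis) by dehydration time, grf6 grf8 left and WT right at each time, with points for libraries and a line for the mean of each group of 4. The highest points are 2.30 and 1.98 in grf6 grf8 at 4 h and 2.01 in WT at 4 h.

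The score bore on much of the transcriptome, since 10440 genes (55.4%) had a slope on it at an adjusted p under 0.05. The common dispersion of the counts corresponded to a coefficient of variation of 32.9% between libraries of a group without the covariate and 23.9% with it. It was 22.3% in the 19 libraries left when the 5 with high values were set aside. That left only replicates 3 and 4 in the grf6 grf8 group at 4 h. In whole leaves fewer cells of a type and less RNA per cell cannot be told apart, and the part of tissue composition in the results was not tested beyond these fits. The 6 score genes themselves had averaged log2 fold changes of -0.14 to 0.67 without the covariate, and 0 of 6 passed. The covariate is made of these same 6 genes, so the second fit cannot show a genotype difference that they share. Total counts ran from 17.4 to 22.4 M per library, and their genotype difference of 0.34 M did not pass (exact permutation p = 0.552, adjusted p = 0.821). Markers of root, flower, guard cells, epidermis and vasculature had 0 tested members called in either fit. Summed CPM of the root list ran from 0.787 to 13.5 in grf6 grf8 and from 0.577 to 94.4 in WT, with RHD6 at 0 in every library. For the flower list the sums ran from 1.84 to 37.6 in grf6 grf8 and from 1.44 to 21.0 in WT. Of the 6 tested flower markers 5 were above 0, with a median log2 fold change of 0.53, and the highest, the floral identity gene AP1, was at 3.21 with an adjusted p of 1.00.

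The mutated genes come first, as a check of the labels. GRF6 (AT5G10450) lies on the minus strand of chromosome 5 (3283853 to 3286537, TAIR10.1). It had 207.5, 301, 331.5 and 388 CPM in grf6 grf8 at 0 h, 65.7 to 95.5 CPM at 2 h and 43.7 to 63.9 CPM at 4 h. In WT it had 1330, 1545, 1612 and 1803 CPM at 0 h, 602 to 933 CPM at 2 h and 316 to 796 CPM at 4 h. The groups were apart at each time, although grf6 grf8 at 0 h reached above the lowest WT library at 4 h. Averaged over the times GRF6 fell 8.37-fold (log2 fold change -3.07, SE 0.15, adjusted p = 1.68e-11). The transcript therefore was low and still present in every grf6 grf8 library.

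GRF8 (AT5G65430, chromosome 5, 26148150 to 26150593, minus strand) was lower too, with its largest difference at 0 h. It had 75.6, 80.0, 86.1 and 90.3 CPM in grf6 grf8 at 0 h, against 242, 280.0, 292 and 346 CPM in WT. At 4 h it had 46.2 to 78.7 CPM in grf6 grf8 and 68.0 to 129.5 CPM in WT, where the groups overlapped. The averaged log2 fold change was -1.07 (SE 0.11, adjusted p = 7.81e-06), made of -1.80 at 0 h, -0.52 at 2 h and -0.89 at 4 h. The test of a difference between the times gave an adjusted p of 0.813, and 0.0569 with the covariate. The call is lost without the 0 h libraries (adjusted p = 0.241).

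Of the other 14-3-3 genes, GRF5 and GRF9 rose in the mutant in the average, with log2 fold changes of 0.58, 0.56 and 0.66 for GRF5 and 0.47, 0.83 and 0.64 for GRF9 at 0, 2 and 4 h. Neither passed at a single time without the covariate. With it GRF5 passed at 0, 2 and 4 h (adjusted p = 0.00752, 0.0401 and 0.00112). GRF9 then passed at 2 and 4 h (0.00178 and 0.00129) and not at 0 h (0.134). GRF5 (AT5G16050, chromosome 5, 5243555 to 5245838, minus strand) had 101 to 112 CPM in grf6 grf8 at 0 h against 60.8 to 76.7 CPM in WT, 148 to 180.2 against 96.7 to 128.5 at 2 h, and 179 to 233 against 106 to 146.5 at 4 h. Its groups of 4 did not overlap at any time. It was 1.52-fold higher on average (log2 fold change 0.60, SE 0.07, adjusted p = 8.32e-05), and left the call only without the 0 h libraries (adjusted p = 0.0566).

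GRF9 (AT2G42590, chromosome 2, 17731830 to 17733982, minus strand) had 290.0 to 410.0 CPM in grf6 grf8 and 225.5 to 274 CPM in WT at 0 h. At 2 h it had 244.5 to 276.5 CPM in grf6 grf8 and 139.5 to 170.5 CPM in WT, and at 4 h 184.5 to 271 CPM and 95.5 to 169 CPM. These groups too were apart at all 3 times. The averaged log2 fold change was 0.65 (SE 0.09, adjusted p = 0.00171), and it did not pass without the 0 h libraries (0.0883) or without the 2 h libraries (0.437).

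Of all genes tested, 7 had groups that did not overlap at any of the 3 times (0.0372%), and 4 of them were 14-3-3 genes, namely GRF6, GRF5, GRF9 and GRF3. The others were MSTRG.13239, AT2G30740 and AT1G75280.

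With the covariate GRF2 (AT1G78300) and GRF3 (AT5G38480) passed too, with log2 fold changes of 0.40 (SE 0.07, adjusted p = 0.00614) and 0.37 (SE 0.08, adjusted p = 0.0364). Without it both missed (adjusted p = 0.0733 and 0.0794). GRF3 had 124 to 140.3 CPM in grf6 grf8 and 99.3 to 111 CPM in WT at 0 h, and 264 to 299.6 CPM in grf6 grf8 and 188 to 256 CPM in WT at 4 h. Its call with the covariate was kept by 6 of 35 alternatives. Of the 11 tested members of the family, 2 were higher without the covariate and 4 with it, against 0.0265% and 0.0955% of all genes. The 2 lower members were the mutated genes GRF6 and GRF8 in both fits, where 0.0584% and 0.175% of all genes were lower. The median log2 fold change of the 11 was 0.30. The members that did not pass had averaged log2 fold changes of 0.30 (GRF1), 0.22 (GRF4), 0.32 (GRF7), 0.15 (GRF10) and -0.03 (GRF11).

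These differences were small beside that of GRF6. Per length, the median FPKM over 12 libraries was 51.6 in grf6 grf8 and 523 in WT for GRF6, and 67.6 and 110.0 for GRF8. For GRF9 it was 210.5 in grf6 grf8 and 125.5 in WT, and for GRF5 143 and 99.6. The summed CPM of the family ran from 1568 over a median of 1798 to 2057 in grf6 grf8, against 1482, 2244 and 3197 in WT. These ranges overlap, but they pool the 3 times. GRF6 alone fell in WT from a mean of 1573 CPM at 0 h to 597.5 CPM at 4 h. The sums were not compared at single times.

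**Figure D2:**
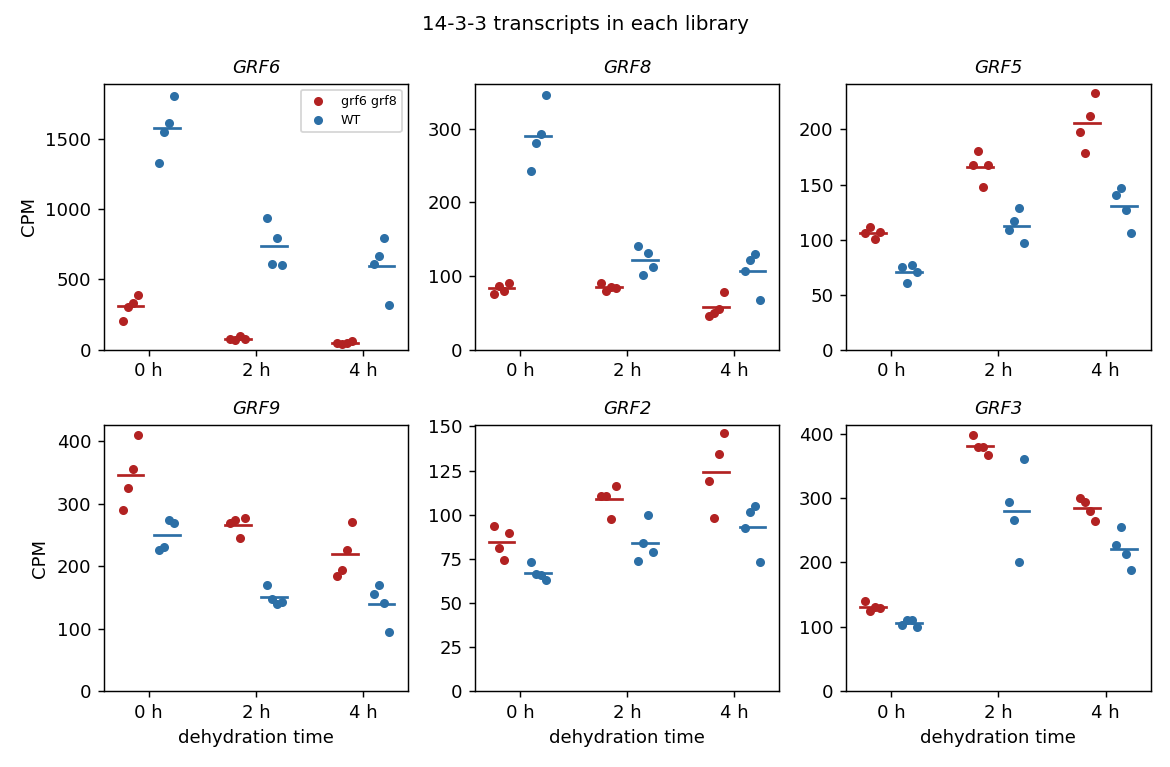
CPM (linear vertical axes) of 6 14-3-3 genes in every library by dehydration time, grf6 grf8 left and WT right at each time, with points for libraries and a line for the mean of each group of 4. GRF6 and GRF8 lie lower in grf6 grf8, with an overlap for GRF8 at 4 h, and GRF5 and GRF9 lie higher without overlap at each time.

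The largest difference was in an unannotated locus. MSTRG.13239 carries a name of the authors' transcript assembly, and the files give it no position or product. It had 0 to 0.203 CPM in the 12 grf6 grf8 libraries, with a median of 0.0485, and 3.86 to 13.1 CPM with a median of 7.31 in the 12 WT libraries. The 12 libraries of each genotype were apart. The log2 fold change was -6.95 (SE 0.34, adjusted p = 1.68e-11), with -6.88, -6.71 and -7.27 at 0, 2 and 4 h, and all 34 alternatives that could test it kept the call.

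A second locus with a large difference is on chromosome 1. MRD1 (AT1G53480, 19963047 to 19964712, minus strand) is named for its lower level in the mto1 mutant of methionine metabolism, and HEI10 (AT1G53490, 19963267 to 19966952, plus strand) encodes a RING protein of meiotic crossovers. The genes overlap by 1446 bases on opposite strands, and the sources used here do not state that counting used strand, so their reads cannot be told apart. MRD1 had 0.163 to 0.963 CPM in grf6 grf8 at 0 h and 0.285 to 0.390 CPM at 2 h, against 1.95 to 27.5 CPM and 12.5 to 33.8 CPM in WT. At 4 h it had 0, 0.0964, 0.234 and 6.57 CPM in grf6 grf8 and 1.72, 2.28, 5.86 and 11.9 CPM in WT. The 4 h groups overlap through grf6 grf8 4 h replicate 1, in which HEI10 was high as well (7.43 CPM, against 1.52 to 1.73 CPM in the other grf6 grf8 libraries at 4 h). The averaged log2 fold change was -4.21 for MRD1 (SE 0.62, adjusted p = 0.00237) and -1.59 for HEI10 (SE 0.29, adjusted p = 0.0317). Of the alternatives, 32 of 35 kept MRD1 and 20 of 34 kept HEI10.

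AT2G30740 encodes a protein kinase (chromosome 2, 13095309 to 13098732, plus strand) and was lower in every mutant library than in any WT library. It had 17.7 to 23.2 CPM in the 12 grf6 grf8 libraries, with a median of 19.9, and 24.4 to 42.6 CPM with a median of 29.9 in WT. The log2 fold change was -0.65 (SE 0.08, adjusted p = 8.75e-05), and only the fit without the 2 h libraries lost it (adjusted p = 0.0852). AT2G30740 and MSTRG.13239 were the 2 genes of all those tested whose 12 grf6 grf8 libraries did not overlap the 12 WT libraries. AT1G75280, whose product belongs to the NmrA-like family, had 5.23 to 5.82 CPM in grf6 grf8 at 0 h against 6.44 to 8.08 CPM in WT, and 10.3 to 12.0 CPM against 13.8 to 18.3 CPM at 4 h. It fell 1.34-fold on average (log2 fold change -0.42, SE 0.07, adjusted p = 0.0173), with no overlap at any time. AT2G04080, of the MATE family of efflux carriers, had a log2 fold change of -0.51 (SE 0.10, adjusted p = 0.0424), which 20 of 35 alternatives kept.

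AT5G07810 stood apart because its average describes no single time. It encodes an SNF2 and helicase domain protein and lies on chromosome 5 (2491200 to 2498542, minus strand), within the window of 1 Mb around GRF6. At 0 h it had 0.304, 0.325, 0.334 and 0.367 CPM in grf6 grf8, against 2.51, 3.535, 3.64 and 4.06 CPM in WT. At 2 h it had 0.902 to 1.28 CPM in grf6 grf8 and 1.13 to 1.46 CPM in WT, and at 4 h 1.58 to 2.25 CPM and 1.85 to 3.39 CPM, both with overlap. The averaged log2 fold change of -1.28 (SE 0.14, adjusted p = 3.51e-05) was made of -3.35 at 0 h, -0.20 at 2 h and -0.28 at 4 h. It was the 1 gene of 18841 (0.00531%) whose genotype effect differed between the times (interaction in edgeR, adjusted p = 0.000118, and 392 genes at an unadjusted p under 0.05), and with the covariate too it was the 1 gene called. It is named here although its level is under the minimum of 5 CPM in the naming rule.

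Among the higher genes the remaining 3 rested on less. ARP9 (AT5G43500), an actin-related protein gene, had 9.07 to 22.8 CPM over a median of 15.4 in grf6 grf8 and 7.89 to 10.7 CPM over a median of 9.72 in WT. Its spread was wider in the mutant, and the log2 fold change of 0.69 (SE 0.13, adjusted p = 0.0468) was kept by 5 of 35 alternatives. BBX8 (AT5G48250), a B-box zinc finger gene, with 0.11, 0.55 and 0.73 at 0, 2 and 4 h, had an averaged log2 fold change of 0.46 (SE 0.09, adjusted p = 0.0424), kept by 7 of 35. AT1G26665, a subunit of the Mediator complex that links transcription factors to RNA polymerase, had 0.39 (SE 0.07, adjusted p = 0.0424), kept by 11 of 35. With the covariate the 3 genes had adjusted p-values of 0.0174, 0.00706 and 0.0159, and 31 to 32 of 35 alternatives kept them.

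**Figure D3:**
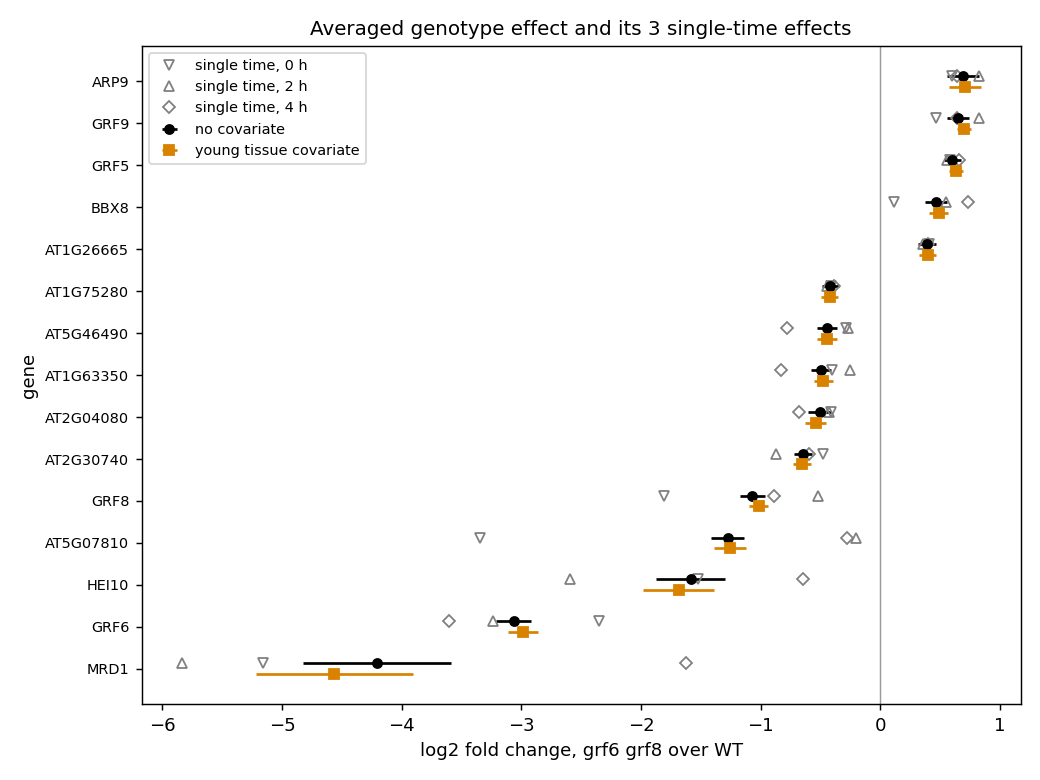
Averaged log2 fold change of grf6 grf8 over WT (horizontal axis) for 15 of the 16 called genes, black circles without and orange squares with the young tissue covariate, bars for the SE, and open grey symbols for the effects at 0, 2 and 4 h. MSTRG.13239, at -6.95, is left out of the plot. The single-time effects of GRF5 lie close to its average, while AT5G07810 has -3.35 at 0 h and values near 0 later.

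Genes of immune receptors were mostly below 0 in the average, and 2 were called. Receptors of the NBS-LRR type sense pathogen effectors inside the cell and start defence with salicylate. AT1G63350, of the CC-NBS-LRR class (chromosome 1, 23494643 to 23497940, minus strand), had 11.3 to 16.4 CPM in grf6 grf8 and 14.8 to 20.9 CPM in WT at 0 h. At 4 h it had 3.23, 3.79, 4.555 and 4.86 CPM in grf6 grf8 against 7.12, 7.15, 7.47 and 7.50 CPM in WT. The groups were apart at 4 h and overlapped before, and the averaged log2 fold change was -0.50 (SE 0.08, adjusted p = 0.0161). AT5G46490, of the TIR-NBS-LRR class, had 8.72 to 10.1 CPM in grf6 grf8 and 13.9 to 19.6 CPM in WT at 4 h, with an averaged log2 fold change of -0.45 (SE 0.08, adjusted p = 0.0409) that 9 of 35 alternatives kept. Its neighbour RPS6 (AT5G46470) ends 904 bases before its start on the same strand, and the authors' counting could divide reads between such near copies.

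With the covariate 4 further receptor genes passed, namely RPS6 (log2 fold change -0.38), LAZ5 (AT5G44870, -0.35), AT5G41550 (-2.12) and SNC1 (AT4G16890, -0.37, SE 0.07, adjusted p = 0.0139). AT5G41550 was near the floor, with 0 to 0.434 CPM in grf6 grf8 and 0.133 to 2.63 CPM in WT. SNC1 had 71.0 to 84.2 CPM in grf6 grf8 and 100.2 to 137 CPM in WT at 4 h, and the groups overlapped at 0 and 2 h. Of the 107 tested genes whose RefSeq product names NBS-LRR or NB-ARC, a set chosen after the called genes were seen and so given without a test, 0 were higher and 2 lower, where 0.0584% of all genes were lower, and 0 were higher and 6 lower with the covariate, where 0.175% of all genes were lower. Their median log2 fold change was -0.23, and 99 of the 107 (92.5%) were below 0, against 48.3% of all genes. In the 19 libraries without high cell division scores the median was -0.21, with 93 of 106 below 0.

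The salicylate and basal immunity list, which holds the receptor gene SNC1 too, had 25 of 26 tested members below 0, against 48.3% of all genes. Its median was -0.30. None of its members was called without the covariate, where 0.0849% of all genes were. With the covariate SNC1 was the 1 member called, where 0.271% of all genes were. FMO1 had an averaged log2 fold change of -0.70, PR1, the standard marker of salicylate signalling, of -0.53 and the synthesis gene ICS1 of -0.56, each with an adjusted p of 1.00. Summed CPM of the list ran from 918 to 5881 in grf6 grf8 and from 1113 to 5053 in WT. The jasmonate list, whose hormone answers wounding, had 23 of 26 members below 0 and 0 called in either fit, against the same shares. Its median was -0.29. Its largest values were LOX4 (-0.58), VSP1 (-0.54) and AOC1 (-0.53), each with an adjusted p of 1.00. Without the 5 libraries the medians were -0.42 for salicylate and -0.45 for jasmonate. Members of a list share the same libraries, so their common sign is not a set of independent results.

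Genes of the circadian clock were called with the covariate. In Arabidopsis the morning factors CCA1, LHY and RVE8 and the evening complex of ELF4, ELF3 and LUX repress or activate one another through the day, and many evening genes carry the evening element AAAATATCT in their promoters, which the morning factors bind. ELF4 (AT2G40080, chromosome 2, 16734294 to 16734953, minus strand) had 19.5, 22.65, 28.9 and 31.4 CPM in grf6 grf8 at 2 h, against 5.89, 11.9, 15.1 and 16.7 CPM in WT. At 4 h it had 33.6, 55.5, 65.4 and 92.6 CPM in grf6 grf8 and 11.1, 26.8, 30.1 and 32.8 CPM in WT. The groups were apart at 2 and 4 h and overlapped at 0 h, where grf6 grf8 had 12.1 to 19.8 CPM and WT 9.84 to 17.5 CPM.

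The averaged log2 fold change of ELF4 was 1.00 with the covariate (SE 0.14, adjusted p = 0.00167) and 0.86 without it (SE 0.20, adjusted p = 0.151). The lowest WT values at 2 and 4 h, 5.89 and 11.1 CPM, stood in replicate 4, the WT libraries with high division scores. ELF4 had a slope of -0.40 log2 units per unit of the score (adjusted p = 0.000601). Without the 5 libraries and with no covariate ELF4 passed (log2 fold change 0.82, adjusted p = 0.0254). In that fit the grf6 grf8 mean at 4 h rested on replicates 3 and 4 alone.

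COR27 (AT5G42900), which represses clock genes in the evening, was higher too. Its groups were apart at 4 h and overlapped at 0 and 2 h. It had 58.5 to 141 CPM in grf6 grf8 and 11.2 to 58.3 CPM in WT at 4 h, with log2 fold changes of 1.03 with the covariate (SE 0.15, adjusted p = 0.00232) and 0.85 without it (adjusted p = 0.358), and passed without the 5 libraries (0.84, adjusted p = 0.0229). FKF1 (AT1G68050), a blue light receptor that times flowering, had 43.7 to 65.9 CPM in grf6 grf8 and 14.6 to 41.5 CPM in WT at 2 h, and 60.6 to 83.8 CPM and 18.4 to 54.6 CPM at 4 h. Its log2 fold change was 0.76 with the covariate (SE 0.13, adjusted p = 0.00967) and 0.65 without it, and it did not pass without the 5 libraries (0.57, adjusted p = 0.151). LUX (AT3G46640) had 0.61 with the covariate (SE 0.10, adjusted p = 0.00712), and its groups overlapped at every time. AT4G33980, whose RefSeq product is named only as an uncharacterized protein, had 0.90 (SE 0.17, adjusted p = 0.0146), with overlap at every time as well. At 0 h the covariate fit gave 0.33 for ELF4, 0.45 for COR27, 0.18 for FKF1, 0.56 for LUX and 0.15 for AT4G33980. None of these passed at 0 h. At 4 h the values were 1.71, 1.77, 1.24, 0.90 and 1.43 in the same order.

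The 2 called morning genes, RVE8 and LHY, went the other way. RVE8 (AT3G09600) had 7.85 to 11.3 CPM in grf6 grf8 and 12.7 to 19.5 CPM in WT at 0 h, and 2.39 to 4.99 CPM and 5.72 to 8.18 CPM at 2 h. The groups were apart at both times and overlapped at 4 h, and the log2 fold change was -0.73 with the covariate (SE 0.13, adjusted p = 0.0136) and -0.66 without it (adjusted p = 0.114). LHY (AT1G01060) had -0.71 with the covariate (SE 0.15, adjusted p = 0.0414), which 12 of 35 alternatives kept, and -0.72 without it (adjusted p = 0.0628). Of the 18 clock genes listed, 0 were called without the covariate, against 0.0849% of all genes, and 2 were higher and 2 lower with it, against 0.271% of all genes. CCA1 (-0.58, adjusted p = 0.424), RVE1 (-0.42), GI (0.34) and TOC1 (0.27) had values of the same sign as the called genes of their phase and did not pass. PRR9, PRR7, ZTL and CHE had values from -0.03 to 0.03. The list median was 0.02 without the covariate, with 10 of the 18 members above 0 and 8 below.

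**Figure D4:**
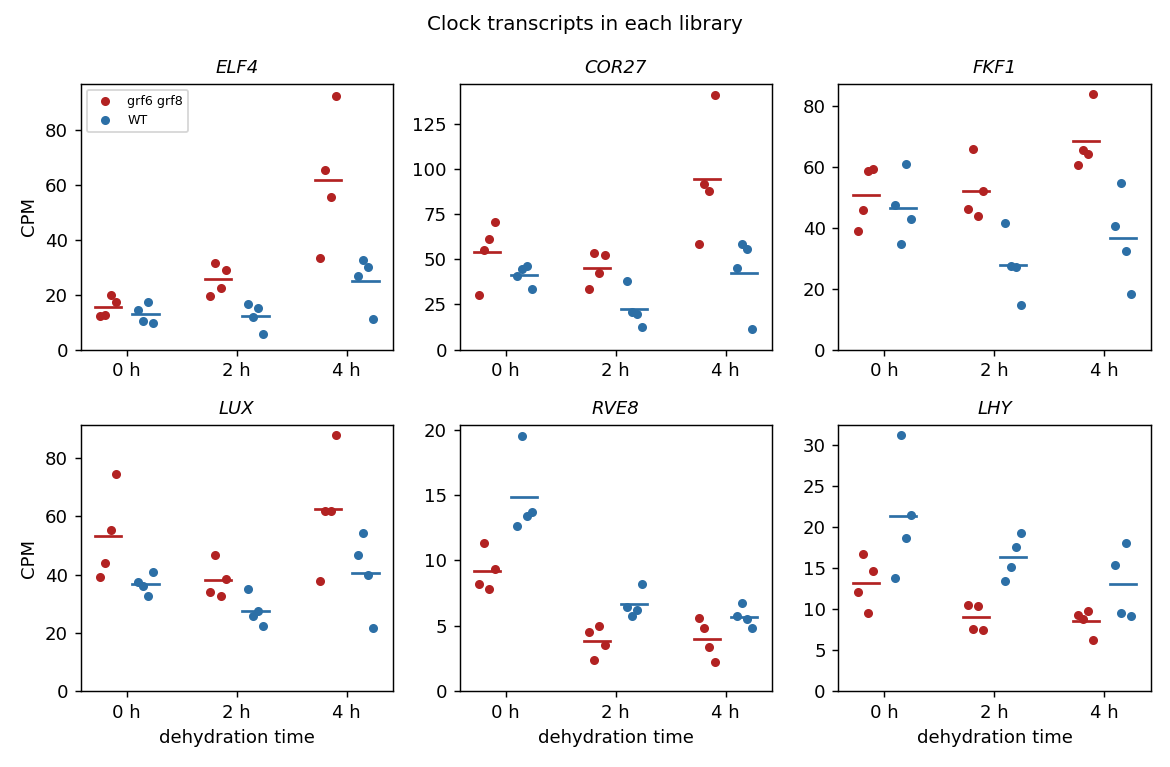
CPM (linear vertical axes) of 4 evening and 2 morning clock genes in every library by dehydration time, grf6 grf8 left and WT right at each time, with points for libraries and a line for the mean of each group of 4. ELF4 and FKF1 do not overlap between genotypes at 2 and 4 h, and RVE8 does not overlap at 0 and 2 h.

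Promoters of 3 genes that were higher with the covariate are shown because they hold the evening element. In the 300 bases before the annotated gene start (RefSeq, TAIR10.1), AAAATATCT was searched on both strands, where the other strand reads AGATATTTT. It stood in 558 of 18499 promoters of tested genes (3.02%), in 5 of the 18 genes higher with the covariate (27.8%) and in 1 of 31 lower ones (3.23%). Among the 5 were LUX, FKF1, BBX8 and MAF5. The G-box CACGTG, which cannot overlap the element, was in 8.36% of all these promoters, 27.8% of the higher and 9.68% of the lower ones. ELF4 and AT4G33980 held no evening element in this window. The element was searched after clock genes were seen among the called genes, so these shares are given without a test. A match is a description of letters, not of binding. Below, 5′ to 3′ on the gene's strand and ending at the base before the gene start, capitals mark the evening element on either strand.
BBX8 (chr5:19563833-19564132, minus strand): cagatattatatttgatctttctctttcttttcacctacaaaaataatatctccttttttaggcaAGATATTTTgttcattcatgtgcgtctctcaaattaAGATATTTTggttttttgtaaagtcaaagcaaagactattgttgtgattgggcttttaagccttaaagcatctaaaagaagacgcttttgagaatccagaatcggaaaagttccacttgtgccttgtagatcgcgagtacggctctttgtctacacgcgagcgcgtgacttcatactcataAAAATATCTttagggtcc
LUX (chr3:17182742-17183041, plus strand): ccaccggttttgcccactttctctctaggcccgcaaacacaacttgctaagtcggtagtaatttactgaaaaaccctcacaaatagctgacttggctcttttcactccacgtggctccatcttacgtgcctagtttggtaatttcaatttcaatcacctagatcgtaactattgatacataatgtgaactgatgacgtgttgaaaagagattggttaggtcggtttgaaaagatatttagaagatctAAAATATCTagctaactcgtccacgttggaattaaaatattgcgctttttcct
FKF1 (chr1:25508339-25508638, plus strand): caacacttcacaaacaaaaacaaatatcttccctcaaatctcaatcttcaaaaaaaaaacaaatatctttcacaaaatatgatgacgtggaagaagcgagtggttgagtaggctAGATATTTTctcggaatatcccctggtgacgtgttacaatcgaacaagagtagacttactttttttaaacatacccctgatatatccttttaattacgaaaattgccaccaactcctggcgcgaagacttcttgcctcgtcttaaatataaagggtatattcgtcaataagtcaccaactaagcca
BBX8 has 3 copies that begin 235, 199 and 18 bases before the gene start. LUX has 1 at 53 bases and FKF1 1 at 186 bases.

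BG1, TSA1 and JAL23 were lower with the covariate, and are set side by side here after their values were seen. BG1 (AT1G52400, also known as BGLU18) frees ABA from its glucose ester, and TSA1 (AT1G52410), its neighbour at 2192 bases, and JAL23 (AT2G39330), a lectin, are known with it from bodies of the endoplasmic reticulum that serve defence. No list of such genes was examined. At 2 h JAL23 had 23.3 to 37.2 CPM in grf6 grf8 and 58.0 to 152 CPM in WT, and BG1 had 236 to 472 CPM and 697 to 1220 CPM. The groups of both genes were apart at 2 h and overlapped at 0 and 4 h. The log2 fold changes with the covariate were -1.66 for JAL23 (SE 0.29, adjusted p = 0.00967), -1.25 for TSA1 (adjusted p = 0.0224) and -1.29 for BG1 (adjusted p = 0.0466), and 11 of 35 alternatives kept BG1. Without the covariate they were -1.42, -1.08 and -1.02 with adjusted p-values of 0.679, 0.794 and 1.00. All 3 had positive slopes on the score (0.87, 0.73 and 0.85), and WT 4 h replicate 4, with a score of 2.01, held 533 CPM of JAL23 against 71.8 to 78.0 CPM in the other WT libraries at 4 h. Without the 5 libraries JAL23 passed (adjusted p = 0.0167) and BG1 did not (0.139).

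Further genes called with the covariate were EXPA1 (AT1G69530), an expansin of wall loosening (log2 fold change -0.82, SE 0.15, adjusted p = 0.0134), MAF5 (AT5G65080), a relative of the flowering repressor FLC (0.89, SE 0.19, adjusted p = 0.0440), and FER4 (AT2G40300), a ferritin that stores iron (0.32, SE 0.06, adjusted p = 0.0181). Each was the 1 called member of its list. Chosen after its values were seen, VTC2 (AT4G26850), which encodes an early enzyme of ascorbate synthesis, had -0.40 (SE 0.07, adjusted p = 0.00967). LBD25 (AT3G27650), a LOB domain gene of low level, had -2.22 (SE 0.34, adjusted p = 0.00413), and -2.13 without the covariate (adjusted p = 0.911). Its slope on the score was 1.99. WT 2 h replicate 4 held 24.44 CPM of LBD25, against 0.822 to 2.25 CPM in the other WT libraries at 2 h. WT 4 h replicate 4 held 19.98 CPM, against 0.338 to 0.5255 CPM. The groups overlapped at 0 and 4 h. Without the covariate EXPA1, MAF5, FER4 and VTC2 did not pass either (adjusted p = 0.136, 0.440, 0.424 and 0.263).

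Genes of the dehydration response are given here by their medians, since with 0.0849% of all genes called 0 called in a list of this size is near the background. Clade A PP2C phosphatases, which hold ABA signalling back, had 0 of 8 called and a median log2 fold change of 0.14. Of the 7 genes of ABA breakdown and conjugation, with a median of -0.17, 0 were called without the covariate and BG1, described above, was lower with it. The 8 ABA receptors, 10 SnRK2 kinases and 5 ABF and ABI factors had medians of -0.04, -0.03 and 0.10. The 20 dehydration effector genes had 16 above 0 and a median of 0.12, and 0.26 with the covariate. Their highest values were LEA18 (1.90, adjusted p = 0.832), LEA7 (1.46, adjusted p = 0.514) and RAB18 (0.62, adjusted p = 0.936). Proline metabolism, wax and cutin, aquaporins and raffinose synthesis had medians of 0.06, -0.14, 0.06 and -0.40, with 0 called of 7, 18, 16 and 5. The 5 raffinose and inositol genes were all below 0, from -0.22 in RS5 to -0.59 in GOLS3.

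Genes of 14-3-3 partner proteins had 0 called as well, against the same background. The 9 tested plasma membrane proton pumps had a median of 0.03, with AHA2 at -0.28 and AHA1 at 0.03. The 13 other partner genes, among them the nitrate reductases NIA1 (-0.17) and NIA2 (-0.04) and the brassinosteroid factors BZR1 and BES1, had a median near 0 at -0.00116 and ran from -0.17 to 0.58. Of the nuclear photosynthesis genes 0 of 46 were called, with a median of 0.05, and 0.18 with the covariate.

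**Figure D5:**
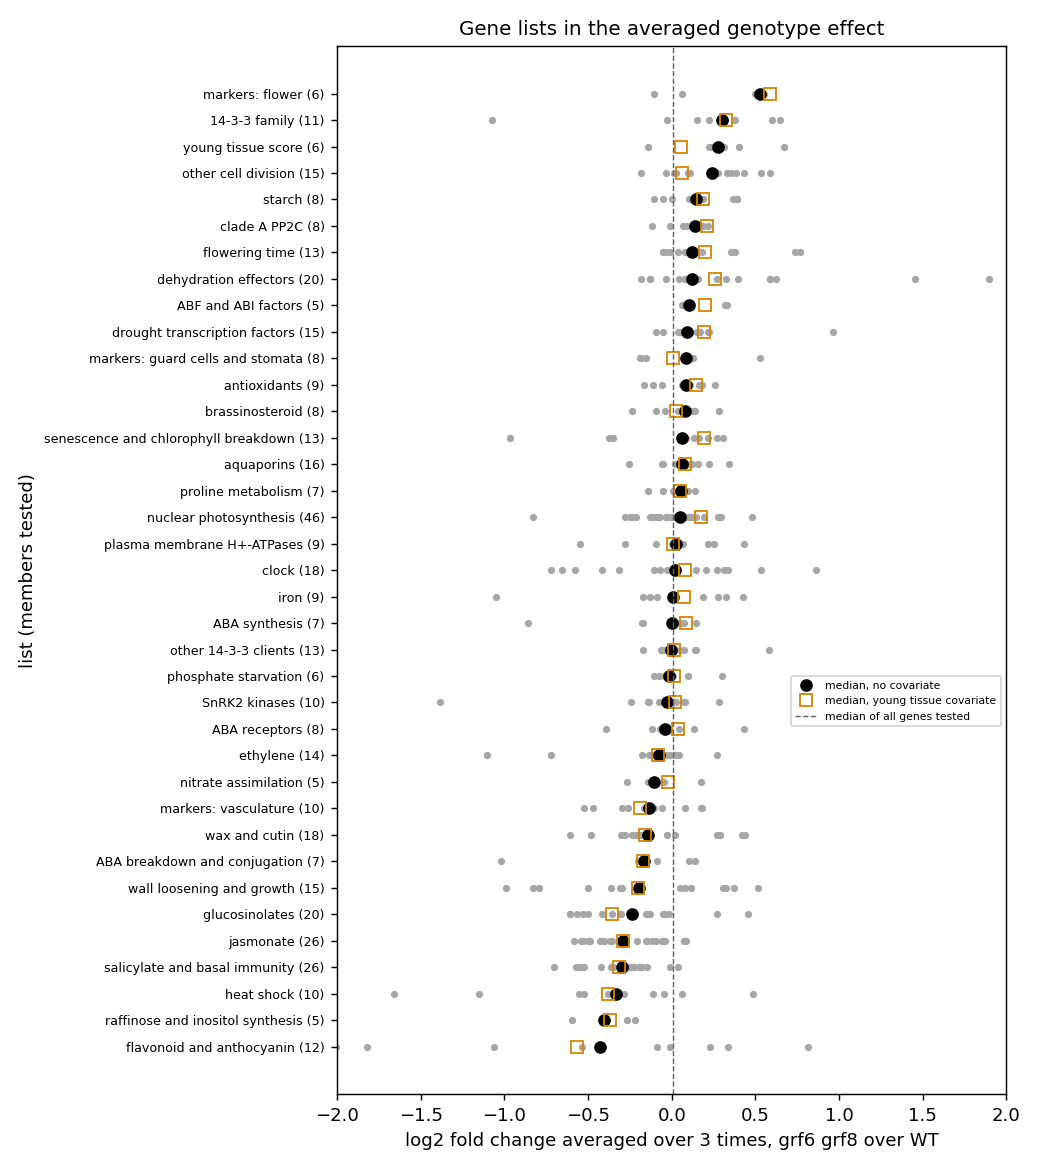
Averaged log2 fold change of grf6 grf8 over WT (horizontal axis, drawn from -2 to 2) for each list with at least 5 tested members, grey points for members, black circles for the median without and orange squares for the median with the young tissue covariate, and a dashed line for the median of all genes tested. The salicylate and jasmonate lists lie left of the line at -0.30 and -0.29, and 6 members beyond the axis are not drawn.

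The average drew on all 3 times. At single times, without the covariate, 5 genes were called at 0 h (0.0265%), 1 higher and 4 lower. At 2 h 0 were higher and 4 lower (0.0212%), and at 4 h 1 was higher and 2 (0.0106%) lower. With the covariate 2 were higher (0.0106%) and 4 lower (0.0212%) at 0 h, 2 higher (0.0106%) and 5 lower (0.0265%) at 2 h, and 11 higher (0.0584%) and 17 lower (0.0902%) at 4 h. The totals were 6 (0.0318%), 7 (0.0372%) and 28 genes (0.149%), against 3 at 4 h without it (0.0159%). At an unadjusted p under 0.05 there were 547, 512 and 731 genes without the covariate, and DESeq2 was not run at single times. These comparisons share libraries with the average and are no independent check of it.

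Genes were also chosen from the contrast of 2 times and read at the third, in the fit of all 24 libraries, so the third time's libraries still entered the spread. Of the 8 genes called for the average of 2 and 4 h, 7 had the same sign at 0 h. Of 7 called for 0 and 4 h all 7 had it at 2 h, and of 10 called for 0 and 2 h all 10 had it at 4 h. GRF6 and GRF8 are among each of these sets, although GRF8 is not called for 2 and 4 h in the fit that drops the 0 h libraries. The sets without both genes held 5 of 6, 5 of 5 and 8 of 8. With the covariate the counts were 45 of 59 at 0 h, 22 of 25 at 2 h and 11 of 12 at 4 h. The 14 genes that turned at 0 h were called from the dehydrated leaves alone.

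By position, the 16 genes were 5 on chromosome 1 (1 higher, 4 lower), 3 on chromosome 2 (1 and 2) and 7 on chromosome 5 (3 and 4), with 0 on chromosomes 3 and 4 and 1 without a position. Both mutated genes are on chromosome 5, where 4336 genes were tested. Within 1 Mb of GRF6, 434 other genes were tested and 1 was lower, AT5G07810. Within 1 Mb of GRF8, 431 were tested and 0 were called, and with the covariate 1 was higher, MAF5.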

How the data were processed

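Poly(A)-selected RNA from 24 rosette leaf libraries was sequenced. The authors deposited expected counts per gene for each library, whole numbers that sum to different totals, and FPKM of the same libraries. Per the submitters' processing notes, edgeR, DESeq2, RSEM, StringTie 1.3.1, HISAT2, Bowtie2 2.2.8 and fastp 0.18.0 were used with TAIR10; their roles, and whether counting used strand, are not given in the sources used here. FPKM were used only to compare levels between genes.

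The expected counts of 27664 genes, read as whole numbers, were analysed in R 4.3.3 with edgeR 4.0.16: filterByExpr on 6 groups left 18841 genes, TMM scaling, glmQLFit with 1 mean per group, and glmQLFTest of the contrast, two-sided, with Benjamini-Hochberg adjustment over all tested genes at 0.05. The SE is the absolute log2 fold change over the root of the F statistic. A second fit added the score of 6 genes as a covariate. Library measures were compared by an exact permutation test over 343000 arrangements within times. Alternatives used limma 3.58.1 and DESeq2 1.42.0. Procedures were tested on simulated data. Counting depth limits the precision of genes with few counts.

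Named genes are the 2 mutated genes, the 6 score genes, the up to 12 highest and 12 lowest called genes (at least 5 CPM in a group, 1 sign at all times, no organelle genes), 6 and 6 with the covariate, the 6 smallest interaction p-values and up to 3 called members per list. Other members and other called genes were chosen after their values were seen. The comparison, the lists and the members were chosen with earlier results of these data known. Nothing in the labels says that replicates are separate plants, so p-values measure the spread between these samples. Names and coordinates are from RefSeq, TAIR10.1. The promoter sequence of 1 further gene is not reported here.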

Additional observations from a re-analysis of the deposited data

Results flagged for a closer look

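Libraries apart from the other 3 of their group were looked for in 24 measures, the 16 called genes, 6 clock genes, the division score and the total count, which makes 144 groups of 4. Of these 8 had a library apart, and chance gives about 1 in 20. In grf6 grf8 at 4 h, GRF6 had 63.9 CPM in replicate 4 and 43.7 to 44.8 in the others. MRD1 had 6.57 CPM in replicate 1 of grf6 grf8 at 4 h and 0 to 0.234 in the others, and HEI10, which overlaps MRD1, had 7.43 CPM in that library and 1.52 to 1.73 in the others. AT1G75280 had 10.3 CPM in replicate 4 of grf6 grf8 at 4 h, against 11.8 to 12.0 in the others, 5.46 CPM in replicate 2 of grf6 grf8 at 2 h, against 6.33 to 6.46, and 18.3 CPM in replicate 3 of WT at 4 h, against 13.8 to 14.2. ARP9 had 9.55 CPM in replicate 3 of WT at 0 h, against 10.3 to 10.4. RVE8 had 19.5 CPM in replicate 2 of WT at 0 h, against 12.7 to 13.7.

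The genotype effect of AT5G07810 differed between the times (interaction in edgeR, adjusted p = 0.000118), with log2 fold changes of -3.35 at 0 h, -0.20 at 2 h and -0.28 at 4 h. All 26 alternatives kept this call.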

How the results depend on the processing

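Of the counts of called genes under alternatives, 64 moved by over 1.5 times and 260 did not, and of the named genes 1, given below, changed sign in 1 fit. Higher and lower genes in the average, 5 and 11, were 2 and 11 with RLE size factors, 2 and 10 with no low-count filter, 5 and 7 with the stricter filter, 0 and 4, 1 and 5, and 2 and 7 without the 0 h, 2 h and 4 h libraries, 7 and 19 without the 5 libraries with high division scores, 11 and 27 with limma voom and quality weights, 19 and 33 with DESeq2, and 18 and 33 with the covariate. Leaving out 1 library gave 2 to 6 higher and 7 to 20 lower, the most without WT 4 h replicate 4. For the covariate fit, 18 and 33, the counts were 8 and 17, 3 and 11, and 2 and 7 without the 0 h, 2 h and 4 h libraries, 8 and 22 without the 5 libraries, 86 and 125 with DESeq2, and 13 to 28 and 21 to 57 with 1 library left out, the most without grf6 grf8 4 h replicate 3. DESeq2 kept all 16 genes of the first fit and 50 of 51 of the second. Adding the covariate gave 2 higher at 0 h, 2 at 2 h, and 11 higher and 17 lower at 4 h. With 1 library left out the single times gave 1 to 2 higher and 4 to 5 lower at 0 h, 0 to 1 and 2 to 6 at 2 h, 0 to 2 and 2 to 4 at 4 h, and 1 to 2 genes in the interaction. The division score differed by 0.0943 to 0.492 with 1 library left out. AT5G37940, a gene near 0 counts that was not called without the covariate, turned to 0.0337 with limma voom (adjusted p = 0.993). The cause was not tested for these changes.

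With the replicate number as a block 2 genes were higher and 9 lower, all 11 among the 16, and 14 and 28 with the covariate. The labels do not say whether the numbers pair the libraries. Deviations of same-numbered libraries from their group means correlated from -0.783 to 0.401. These deviations take in the division score, which was high in unlike replicate numbers, so they cannot decide on a pairing. Low counts limit genes such as AT5G07810, HEI10 and MRD1.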

Other observations

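Some genes were called at 1 time and not in the average. AT4G08170, an inositol trisphosphate kinase gene of the phosphate signalling pathway, had 32.3, 38.5, 44.3 and 46.5 CPM in grf6 grf8 at 2 h, against 74.3, 80.1, 98.6 and 104 CPM in WT, and was called there (edgeR, log2 fold change -1.14, adjusted p = 0.0036). At 0 and 4 h the log2 fold changes were 0.03 and 0.05. AT2G16365, an F-box gene, had 34.5, 40.1, 43.7 and 46.4 CPM in grf6 grf8 at 4 h, against 23.0, 23.8, 25.4 and 25.4 CPM in WT (log2 fold change 0.76, adjusted p = 0.0112), and -0.21 at 0 h. The interaction of either gene had an adjusted p of 0.187, so a difference between times was not shown. Their averaged log2 fold changes were -0.35 and 0.22 and did not pass.

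Glucosinolates, the sulphur compounds of Brassicaceae defence, had 18 of 20 tested genes below 0, against 48.3% of all genes. The median was -0.24, and 0 were called, where 0.0849% of all genes were. The lowest were the regulators MYB122 and MYB29 (-0.61 each) and MYB51 (-0.57), with adjusted p-values of 1.00, 0.936 and 0.876. Without the 5 libraries with high division scores the median was -0.29 and 1 member was lower, where 19 of 18771 genes were lower.

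Flavonoid and anthocyanin synthesis, which makes sunscreen and red pigments, had a median of -0.43. Of its 12 tested members 9 were below 0, against 48.3% of all genes, and 0 were called, against 0.0849%. Without the 5 libraries with high division scores the median was -0.29 over 8 tested members. Its members scattered between libraries, with summed CPM from 10.5 to 189 in grf6 grf8 and from 19.8 to 226.5 in WT. LDOX, an enzyme of anthocyanin synthesis, had a log2 fold change of -2.01 (adjusted p = 1.00).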
